A study of Drosophila melanogaster with 12 samples.

Results

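The genes described here are 8 signalling genes of the Drosophila melanogaster gonad niche, the somatic cells that support germline stem cells. They are the ligand genes hh, Wnt2, Wnt4 and Wnt6, the Hedgehog receptor genes ptc and smo, and the homeobox genes en and inv. They were chosen by symbol, and each of the 8 matched 1 of the 17559 gene IDs counted. RNA was sequenced from 12 gonad libraries in 4 groups of 3 replicates, all from flies mutant for bam, whose product germ cells need to leave the stem cell state and differentiate. The groups were testes of bam males and 3 kinds of ovary from bam females: those in which Sxl was knocked down by RNA interference (RNAi), those with RNAi against mCherry, and those without RNAi. Sxl is the switch gene of female identity, and mCherry encodes a fluorescent protein that flies lack, so its RNAi serves as a control. Flies were 1 to 3 days old and raised at 25 °C, and the females were virgins. The sources used here do not give the bam alleles, the RNAi lines or the driver that expressed them, so the cell types in which Sxl was knocked down are not known.

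In the Hedgehog pathway the secreted ligand Hh binds the receptor Ptc, which relieves the block that Ptc puts on the membrane protein Smo. Smo then lets the transcription factor Ci act as an activator, and ptc is itself a target of Ci in many fly tissues. Wnt ligands bind Frizzled receptors and in the canonical branch stabilise the β-catenin Armadillo. In the fly ovary the terminal filament and cap cells at the tip of the germarium express en and hh, escort cells respond to Hh, and Wnt ligands from these somatic cells sustain the escort cells. In the testis, hub cells secrete Hh to the cyst stem cells, and Wnt2 is needed for the pigment cells that cover the male gonad.

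Levels are in CPM, the reads of a gene per 1000000 reads assigned to genes, scaled by the trimmed mean of M values (TMM). Depth was 16152230 to 25097969 reads assigned to genes per library, so that 3 counts correspond to 0.120 to 0.186 CPM. The gonads are bulk samples, in which fewer cells of a type and less RNA per cell cannot be told apart. The labelled tissues were checked against markers. Of the male gonad soma and pigment cell list (4 of 4 matched), 2 genes were higher and 1 was lower in testes. Sox100B, a gene of the male gonad soma, stood at 25.9 to 28.4 CPM in bam testes and 0.00 to 0.160 CPM in bam ovaries, whereas w, a pigment transporter gene, averaged 9.99 CPM in bam testes and 75.1 CPM in bam ovaries. The yolk and follicle cell list (8 of 8 matched) summed to 37.2 to 48.5 CPM in bam testes and 5854 to 6744 CPM in bam ovaries. The testis hub list (4 of 5 matched) summed to 125 to 152 CPM in bam testes and 406 to 580 CPM in bam ovaries. Of its 3 genes tested, 2 were lower in testes. Most of the sum was Fas3, a cell adhesion gene (134 CPM in bam testes and 485 CPM in bam ovaries on average). The list's gene upd1, the ligand that hub cells secrete, lay at 0.691 to 0.838 CPM in bam testes and 0.481 to 1.14 CPM in bam ovaries. Another gene of the list, tup, was higher in testes. It had 0.230 to 0.957 CPM (37 reads in all) in bam testes and 0.0476 to 0.160 CPM (6 reads in all) in bam ovaries. Markers of tissue around the gonad differed too. The muscle list (11 of 12 matched) summed to 1244 to 1557 CPM in bam testes and 8541 to 12200 CPM in bam ovaries, and accessory gland genes (9 of 9 matched) summed to 204 to 1949 CPM in bam testes, highest in replicate 2, and 5.42 to 25.3 CPM in bam ovaries.

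The series set bam testes against bam ovaries to ask how gonads of the 2 sexes differ when germ cells cannot differentiate. Relative to bam ovaries, testes had more RNA of the ligand genes hh, Wnt2 and Wnt6 and less of the receptor gene ptc, by 2.45 to 4.03-fold. The homeobox gene inv was lower too, but it passed the filter on low counts through the ovaries alone, so that a difference was built into its entry. Wnt4 and smo did not pass the test, and en had too few reads to enter it. Of the 6 other members tested, 3 were higher and 1 was lower in testes at an adjusted p under 0.05 (edgeR quasi-likelihood test with Benjamini-Hochberg adjustment over all genes tested, as for every adjusted p here unless DESeq2 is named), and in those 4 the groups did not overlap. Over all 9738 genes tested, 32.7% were called, 16.4% higher and 16.3% lower, and the groups did not overlap in 48.2%. The share called over all genes was 20.2% without bam ovary replicate 1, 19.3% without bam ovary replicate 2 and 20.5% without bam testis replicate 1. The 4 members were called in each of the 13 alternative fits.

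**Figure D1:**
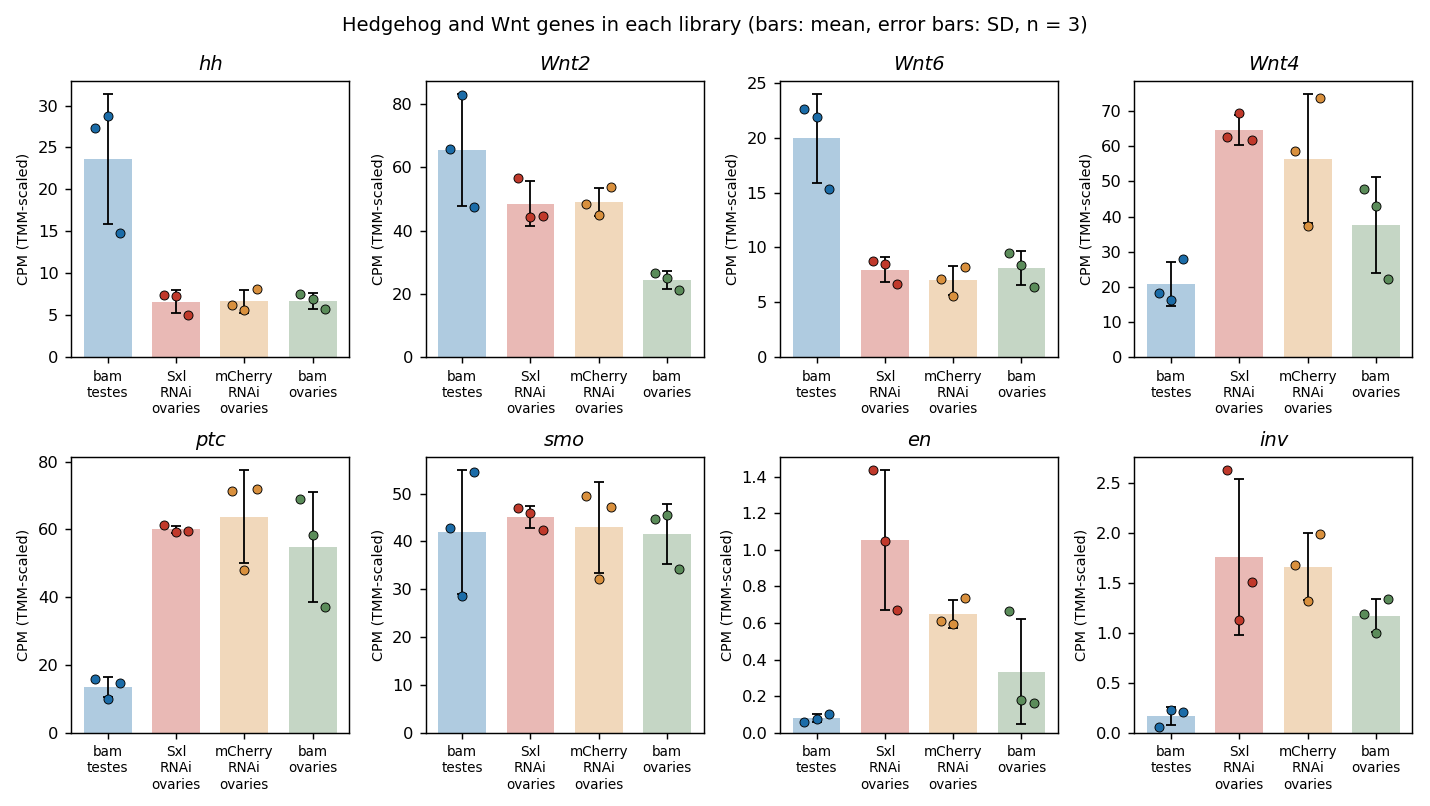
TMM-scaled CPM (linear y axis from 0) of the 8 members in bam testes, Sxl RNAi ovaries, mCherry RNAi ovaries and bam ovaries. Points are libraries, bars are means and error bars are SD (n = 3); hh and Wnt6 stand apart in testes alone (23.6 and 19.9 CPM on average), ptc and inv are lowest there, and Wnt2 is lowest in bam ovaries (24.3 CPM).

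Among the ligands, hh (FBgn0004644, 3R:23128169-23141906, minus strand, BDGP6) encodes the only Hedgehog ligand of the fly. It stood at 27.4, 28.8 and 14.8 CPM in bam testes, against 7.47, 6.94 and 5.67 CPM in bam ovaries. All 3 testes lay above all 3 ovaries, although testis replicate 3 was near the middle between the groups. The log2 fold change was 1.80 (SE 0.27, adjusted p = 0.00332), which is 3.49-fold. In the RNAi ovaries hh stayed at the level of bam ovaries, with 6.57 ± 1.39 CPM under Sxl RNAi and 6.65 ± 1.35 CPM under mCherry RNAi (SD, n = 3 each).

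Wnt2 (FBgn0004360, 2R:9494166-9503188, plus strand) had 66.0, 83.0 and 47.6 CPM in bam testes, against 26.6, 25.2 and 21.2 CPM in bam ovaries. Again no testis overlapped an ovary. Its log2 fold change was 1.42 (SE 0.20, adjusted p = 0.00263). The RNAi ovaries did not follow bam ovaries for this gene: they had 56.8, 44.2 and 44.5 CPM under Sxl RNAi and 48.6, 44.9 and 53.9 CPM under mCherry RNAi. Those 6 values overlap the lowest testis and lie above every bam ovary.

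Wnt6 (FBgn0031902, 2L:7333714-7352542, plus strand) had 22.6, 22.0 and 15.3 CPM in bam testes, against 9.47, 8.41 and 6.42 CPM in bam ovaries. Like hh, it was highest in all 3 testes and lowest among them in replicate 3. Its log2 fold change was 1.29 (SE 0.22, adjusted p = 0.00558). The RNAi ovaries had 7.95 ± 1.13 CPM under Sxl RNAi and 6.98 ± 1.34 CPM under mCherry RNAi (SD, n = 3 each), within the reach of bam ovaries.

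Wnt4 (FBgn0010453, 2L:7255419-7277171, minus strand), a ligand that signals from escort cells in the ovary, had 18.2, 16.3 and 27.9 CPM in bam testes, against 47.9, 43.0 and 22.1 CPM in bam ovaries. The groups overlapped, because testis replicate 3 lay above ovary replicate 3. The log2 fold change was -0.85 (SE 0.35, 95% interval -1.70 to 0.00, adjusted p = 0.116), which did not pass. Without bam ovary replicate 3 it was -1.11 (adjusted p = 0.0397), and without bam testis replicate 3 it was -1.15 (adjusted p = 0.0464), both of which passed.

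Of the receptor genes, ptc (FBgn0003892, 2R:8649649-8665223, plus strand) had 15.8, 10.1 and 14.7 CPM in bam testes, against 68.9, 58.3 and 37.0 CPM in bam ovaries. The highest testis lay under the lowest ovary. The log2 fold change was -2.01 (SE 0.30, adjusted p = 0.00324). Levels were 60.0 ± 1.13 CPM under Sxl RNAi and 63.8 ± 13.8 CPM under mCherry RNAi (SD, n = 3 each), near those of bam ovaries.

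The other receptor gene, smo (FBgn0003444, 2L:277582-282167, plus strand), which encodes the transducer that Ptc inhibits, had 42.9, 28.5 and 54.5 CPM in bam testes, against 44.7, 45.6 and 34.3 CPM in bam ovaries. The ovaries fell inside the range of the testes. The log2 fold change was 0.03 (SE 0.28, 95% interval -0.64 to 0.69, adjusted p = 0.955). The annotation places 2 genes on the opposite strand that share exonic bases with smo: CG11601 covers 498 bases (12.4% of the exonic bases of smo) and CG17078 covers 587 bases (14.6%). The library kit does not mark strand, so reads in those stretches cannot be told apart, and the level of smo is uncertain to that extent.

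The homeobox genes en and inv are neighbouring paralogues that encode transcription factors, and en is a classic marker of terminal filament and cap cells. inv (FBgn0001269, 2R:11474465-11509695, plus strand) had 1, 3 and 4 reads in bam testes, against 25, 17 and 25 reads in bam ovaries, or 0.167 ± 0.0930 and 1.17 ± 0.169 CPM (SD, n = 3 each). It reached the filter's minimum of 0.565 CPM in 3 of 3 ovaries and 0 of 3 testes. Its log2 fold change was -2.79 (SE 0.46, adjusted p = 0.00497), and with no filter, where its entry did not depend on its level, it was -2.76 (adjusted p = 0.00812). The ratio of pooled counts, scaled for depth, was 0.139, with an exact 95% interval of 0.0575 to 0.289 that covers counting error only.

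en (FBgn0000577, 2R:11524006-11528210, minus strand) had 1, 1 and 2 reads in bam testes, against 14, 3 and 3 reads in bam ovaries. Only ovary replicate 1 rose clearly above the testes, and the gene did not pass the filter in the 6 libraries of this comparison. The ratio of pooled counts was 0.232, with an exact 95% interval of 0.0577 to 0.693. With no filter the log2 fold change was -1.94 (adjusted p = 0.137), with DESeq2 it was -2.05 (adjusted p = 0.252), and in a fit of all 12 libraries it was -1.99 (adjusted p = 0.0387). The RNAi ovaries held more reads of en, with 24, 26 and 12 under Sxl RNAi and 16, 14 and 17 under mCherry RNAi.

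The second comparison of the series set Sxl RNAi ovaries against mCherry RNAi ovaries, to ask which RNAs depend on Sxl in the bam mutant ovary. Sxl (FBgn0264270) itself stood at 187 ± 42.8 CPM under Sxl RNAi and 515 ± 17.1 CPM under mCherry RNAi (SD, n = 3 each), and its log2 fold change was -1.44 (SE 0.18, adjusted p = 0.0466). None of the 8 members was called, in edgeR or in DESeq2, and none reached an unadjusted p under 0.05. The groups overlapped for all 8. Over all genes, 0.209% of 10059 were called by edgeR (0.119% higher, 0.0895% lower) and the groups did not overlap in 18.1%, so few genes of any kind were called here. DESeq2 called 2.63% of 11244 genes in the same comparison.

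The intervals show what size of change this comparison could have missed. For Wnt2 the log2 fold change was 0.00 (SE 0.13, 95% interval -0.31 to 0.31), and for ptc it was -0.07 (SE 0.16, interval -0.46 to 0.32). For smo it was 0.09 (SE 0.17, interval -0.32 to 0.49), and for hh it was 0.00 (SE 0.24, interval -0.57 to 0.57). Wnt6 gave 0.20 (SE 0.21, interval -0.29 to 0.70) and Wnt4 gave 0.21 (SE 0.23, interval -0.34 to 0.76). These 6 intervals leave room for changes of less than 2-fold. The interval of inv, -0.81 to 0.97 around 0.08 (SE 0.38), was wider but also stayed under 2-fold. The largest estimate belonged to en, 0.71 (SE 0.36, interval -0.14 to 1.56, adjusted p = 0.518), with 1.44, 1.05 and 0.671 CPM under Sxl RNAi and 0.611, 0.597 and 0.738 CPM under mCherry RNAi.

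**Figure D2:**
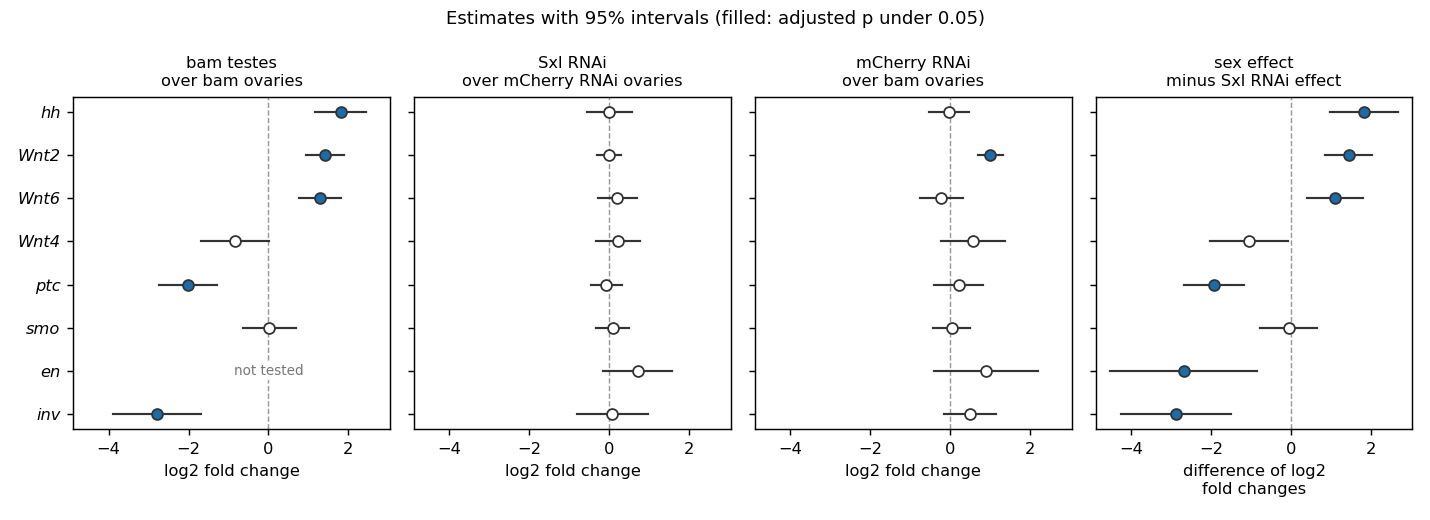
Log2 fold changes of the 8 members (x axis) with 95% intervals in bam testes over bam ovaries, Sxl RNAi over mCherry RNAi ovaries and mCherry RNAi over bam ovaries, and the difference between the first and second of these. Filled points have an edgeR adjusted p under 0.05: 5 members in the first panel (of which inv passed the filter through the ovaries alone), none in the second, Wnt2 in the third and 6 in the fourth. Of those in the fourth, en and inv passed the filter through the ovaries alone. The gene en was not tested in the first.

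Whether both effects differ was tested as the sex effect (testes minus ovaries) minus the Sxl RNAi effect (Sxl RNAi minus mCherry RNAi) in a fit of all 12 libraries. inv and en entered it through the ovaries alone, since neither reached the filter's minimum of 0.539 CPM in a testis. The difference was called for 4 of the other 6 members, 3 positive and 1 negative, against 25.6% of all 10382 genes tested (11.9% positive, 13.7% negative). It was 1.83 for hh (SE 0.39, adjusted p = 0.00499), 1.45 for Wnt2 (SE 0.27, adjusted p = 0.00237) and -1.93 for ptc (SE 0.34, adjusted p = 0.00174). These 3 differences were called in each of the 18 alternative fits. That of Wnt2 rests on bam ovaries as the female side of the sex effect, at 24.3 CPM beside 49.1 CPM in mCherry RNAi ovaries. Testes over mCherry RNAi ovaries gave 0.42 for Wnt2 (SE 0.19, adjusted p = 0.0912), which was not called. For inv the difference was -2.86 (SE 0.63, adjusted p = 0.00613), and -2.86 with no filter (adjusted p = 0.00839).

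The other members rested on fewer fits. For Wnt6 the difference was 1.11 (SE 0.32, adjusted p = 0.0242). It lost the call without bam ovary replicate 3 (0.95, adjusted p = 0.0527), without bam testis replicate 1 (1.01, adjusted p = 0.0638), without mCherry RNAi replicate 1 (1.098, adjusted p = 0.0527) or 3 (0.97, adjusted p = 0.0625), and without Sxl RNAi replicate 3 (1.00, adjusted p = 0.0634). For en it was -2.68 (SE 0.84, adjusted p = 0.0366), called in 6 of 17 alternatives. It lost the call with DESeq2, with no filter (-2.68, adjusted p = 0.0530), with the replicate number as a block, without bam ovary replicate 1 (-1.68, adjusted p = 0.198), and without bam testis replicate 1 or 2, any 1 of the mCherry RNAi replicates, or Sxl RNAi replicate 1 or 2, with adjusted p up to 0.198 in all these fits. The differences of smo, -0.06 (SE 0.32), and Wnt4, -1.05 (SE 0.44, adjusted p = 0.109), were not called. That of Wnt4 passed without bam ovary replicate 3 (-1.34, adjusted p = 0.0256) or without bam testis replicate 3 (-1.32, adjusted p = 0.0456).

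The mCherry RNAi ovaries were also set against bam ovaries without RNAi, since both stand for female bam gonads with Sxl intact and the labels give no other difference than the RNAi. Wnt2 was 2.01-fold higher in mCherry RNAi ovaries (log2 fold change 1.01, SE 0.13, adjusted p = 0.00986), with no overlap between groups. It was the 1 member of 8 called, against 6.11% of 9940 genes called overall (3.78% higher, 2.32% lower) and 31.3% without overlap. The overall share fell to between 1.52% and 3.84% with any 1 of the 6 libraries left out, while Wnt2 was called in each of those fits. With the replicate number as a block, the Wnt2 difference was 1.01 (adjusted p = 0.0786). The other 7 members gave log2 fold changes between -0.22 (Wnt6, SE 0.23) and 0.89 (en, SE 0.55), none of them called.

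The order of the 4 groups was examined with the remaining pairwise contrasts in the fit of all 12 libraries. Each library enters several of these contrasts, so the calls are not independent of each other. bam testes against mCherry RNAi ovaries called hh and Wnt6 higher and ptc and Wnt4 lower, where 49.6% of all genes were called (24.1% higher, 25.6% lower). The groups did not overlap for these members, nor for 54.9% of all genes. bam testes against Sxl RNAi ovaries called the same members in the same directions, again with no overlap. There 48.1% of all genes were called (24.1% higher, 24.0% lower) and 55.7% had no overlap. Both contrasts also called en and inv lower with no overlap. These 2 genes passed the filter through the ovaries alone, so that a difference was built into their entry. Sxl RNAi ovaries against bam ovaries called 1 member, Wnt2, where 5.93% of all genes were called (3.59% higher, 2.34% lower). In that contrast Wnt2, Wnt4 and en, 3 of 8, had no overlap between groups, beside 30.5% of all genes. The gene en reached the filter's minimum in 1 of 3 bam ovaries, so its entry rested on the RNAi ovaries.

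For hh and Wnt6 the order was testes first and then the 3 kinds of ovary, which did not differ beyond their spread. Testes exceeded mCherry RNAi ovaries by 1.83 (SE 0.28, adjusted p = 0.000298) for hh and 1.51 (SE 0.23, adjusted p = 0.000276) for Wnt6 on the log2 scale. They exceeded Sxl RNAi ovaries by 1.84 (SE 0.28, adjusted p = 0.000291) for hh and 1.33 (SE 0.23, adjusted p = 0.000665) for Wnt6. For ptc and inv the order was the reverse, with testes last and no call among the ovaries. The ptc contrasts were -2.24 (SE 0.25, adjusted p = 3.61e-05) over mCherry RNAi and -2.15 (SE 0.25, adjusted p = 4.74e-05) over Sxl RNAi ovaries, and those of inv were -3.29 over mCherry RNAi (SE 0.48, adjusted p = 0.000244) and -3.36 over Sxl RNAi ovaries (SE 0.49, adjusted p = 0.000222). In this fit too inv passed the filter through the ovaries alone, and with no filter, an alternative chosen after seeing the data, its contrasts were -3.29 (adjusted p = 0.000257) and -3.36 (adjusted p = 0.000229).

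Wnt2 had another order. Testes stood first, but not beyond the spread of the RNAi ovaries, with 0.42 (SE 0.19, adjusted p = 0.0912) over mCherry RNAi and 0.43 (SE 0.19, adjusted p = 0.0817) over Sxl RNAi ovaries. The step came below them, since Sxl RNAi ovaries exceeded bam ovaries by 1.00 (SE 0.19, adjusted p = 0.0129). The sex comparison of Wnt2 was therefore larger against bam ovaries than against either set of RNAi ovaries.

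Wnt4 and en stood highest in Sxl RNAi ovaries and then declined through mCherry RNAi and bam ovaries to testes, with no call between neighbours in that order except for en between bam ovaries and testes in the fit of all 12 libraries. The distance from testes to the RNAi ovaries was called for both. Wnt4 in testes gave -1.44 (SE 0.32, adjusted p = 0.00332) over mCherry RNAi and -1.63 (SE 0.32, adjusted p = 0.00164) over Sxl RNAi ovaries. For en it was -2.90 over mCherry RNAi (SE 0.65, adjusted p = 0.00349) and -3.59 over Sxl RNAi ovaries (SE 0.64, adjusted p = 0.000868), on 4 reads in all 3 testes. It passed the filter through the ovaries alone, and with no filter the 2 values were -2.89 (adjusted p = 0.00445) and -3.59 (adjusted p = 0.00103). smo showed no call between any pair of groups.

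To compare levels between genes, CPM were divided by the kilobases of annotated exons. Per kilobase, smo had 10.5 ± 3.25 CPM in bam testes and 10.4 ± 1.56 CPM in bam ovaries (SD, n = 3 each). The order of hh and ptc was reversed between testes and ovaries. The means of both lay under that of smo in bam testes and bam ovaries, but single libraries departed from this. In testis replicates 1 and 2, hh (11.6 and 12.1 CPM per kilobase) lay above smo (10.7 and 7.11). In bam ovary replicate 1, ptc (12.5) lay above smo (11.1). In testes hh had 9.98 ± 3.26 CPM per kilobase and ptc 2.44 ± 0.550, and the ratio of hh to ptc lay between 2.35 and 6.67 in the 3 libraries. In the ovaries ptc exceeded hh in each library, with ratios of hh to ptc of 0.195 to 0.288 under Sxl RNAi, 0.202 to 0.272 under mCherry RNAi and 0.252 to 0.357 in bam ovaries.

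The pool of Wnt ligand RNA described here held the 6 ligand genes matched, Wnt2, Wnt4, Wnt5, Wnt6, Wnt10 and wntD. Wnt10 and wntD added little to it, with 8 reads and 1 read in all 12 libraries. As wg was not analysed here, the pool and its shares leave it out. The pool summed to 48.6 ± 4.83 CPM per kilobase in bam testes, 53.8 ± 3.56 under Sxl RNAi, 52.0 ± 10.7 under mCherry RNAi and 35.6 ± 8.91 in bam ovaries (SD, n = 3 each). Wnt2 made up 60.4%, 69.4% and 48.6% of it in the 3 testes and 28.3% to 37.2% in bam ovaries. Its share was thus above that of every bam ovary in all 3 testes. Wnt4 made up 13.0 ± 5.22% in bam testes and 30.7 ± 4.27% in bam ovaries, and Wnt6 made up 14.3 ± 1.99% in bam testes and 8.07 ± 0.717% in bam ovaries. Sxl RNAi and mCherry RNAi ovaries were alike in this mix, with Wnt2 at 40.2 ± 4.53% and 42.9 ± 5.92% and Wnt4 at 35.8 ± 2.43% and 31.7 ± 4.199% (SD, n = 3 each).

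**Figure D3:**
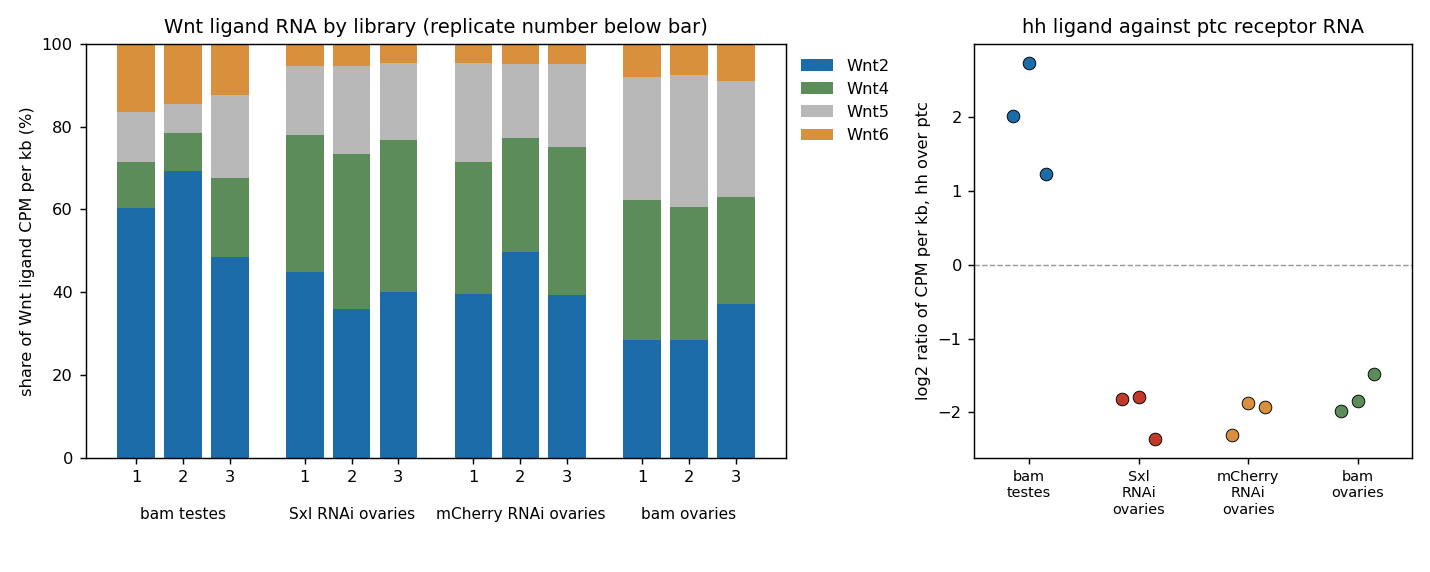
Left, share (percent) of the summed Wnt ligand CPM per kilobase that each Wnt gene takes in each of the 12 libraries; the Wnt2 share is 48.6% to 69.4% in testes and at most 49.7% in an ovary. Right, log2 ratio of hh to ptc CPM per kilobase by library (points), above 0 in the 3 testes (1.23 to 2.74) and below 0 in all ovaries (-2.36 to -1.48).

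Other genes of both pathways were described as lists that do not hold the members. Of 22 Hedgehog pathway genes, 21 were matched and tested, and in bam testes over bam ovaries 1 was higher and 5 were lower. The median log2 fold change of the list was -0.16, beside 0.01 for all genes tested. The 6 calls, 28.6% of the list, compare with the 32.7% called over all genes, and they became 3 without bam ovary replicate 1, without bam ovary replicate 2 or without bam testis replicate 1. Among the lower genes, boi, a co-receptor that binds Hh, had 22.5, 16.0 and 25.0 CPM in bam testes, against 172, 151 and 117 CPM in bam ovaries. Its log2 fold change was -2.78 (SE 0.26, adjusted p = 0.000459). The partner gene ihog did not follow it, with -0.10 (SE 0.25, adjusted p = 0.801).

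ci, the transcription factor of the pathway, had 27.9, 23.6 and 42.9 CPM in bam testes, against 161, 156 and 90.7 CPM in bam ovaries (log2 fold change -2.10, SE 0.34, adjusted p = 0.00447). The groups did not overlap. dally, a glypican that shapes ligand gradients, had a log2 fold change of -2.04 with an adjusted p of 0.00534 (SE 0.34). ttv, a heparan sulphate polymerase, gave -1.29 (SE 0.33, adjusted p = 0.0248), and shf, a secreted factor for Hh spread, gave -0.54 (SE 0.15, adjusted p = 0.0381). The gene that rose was Su(fu), an inhibitor that binds Ci, at 60.6 ± 7.84 CPM in bam testes and 44.6 ± 0.653 CPM in bam ovaries (SD, n = 3 each; log2 fold change 0.43, SE 0.12, adjusted p = 0.0296).

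Of 32 Wnt pathway genes, 30 were matched and 27 tested; Wnt10, wntD and Drl-2 had at most 18 reads over all 12 libraries. In bam testes over bam ovaries 12 were lower and none was higher, 44.4% of the list beside the 32.7% called over all genes and the 16.3% called lower. The list median was -0.74, beside 0.01 for all genes tested. The 12 calls became 7 without bam ovary replicate 1, without bam ovary replicate 2 or without bam testis replicate 1. The lowest log2 fold change belonged to drl, a Ryk-type receptor for Wnt5, which had 3.65, 2.92 and 2.04 CPM in bam testes, against 88.3, 72.4 and 40.3 CPM in bam ovaries (log2 fold change -4.55, SE 0.38, adjusted p = 0.000293). Its paralogue dnt gave -1.06 (SE 0.19, adjusted p = 0.00629).

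Of the Frizzled receptors, fz had 4.18, 3.45 and 5.13 CPM in bam testes, against 42.8, 39.3 and 34.8 CPM in bam ovaries (log2 fold change -3.18, SE 0.22, adjusted p = 0.000142). fz2 had 57.1, 30.6 and 53.8 CPM in bam testes, against 272, 253 and 168 CPM in bam ovaries (-2.28, SE 0.33, adjusted p = 0.00279). Neither gene had overlapping groups. fz3 (0.30, SE 0.21, adjusted p = 0.319) and fz4 (-0.76, SE 0.27, adjusted p = 0.0776) were not called. The other called genes named here were otk, a transmembrane co-receptor (-1.45, SE 0.33), arm, the fly β-catenin (-0.999, SE 0.16), por, the acyltransferase that lipidates Wnt ligands (-0.81, SE 0.12), and dally, which is in both lists. The adjusted p of otk was 0.0169, that of arm 0.00425 and that of por 0.00281.

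**Figure D4:**
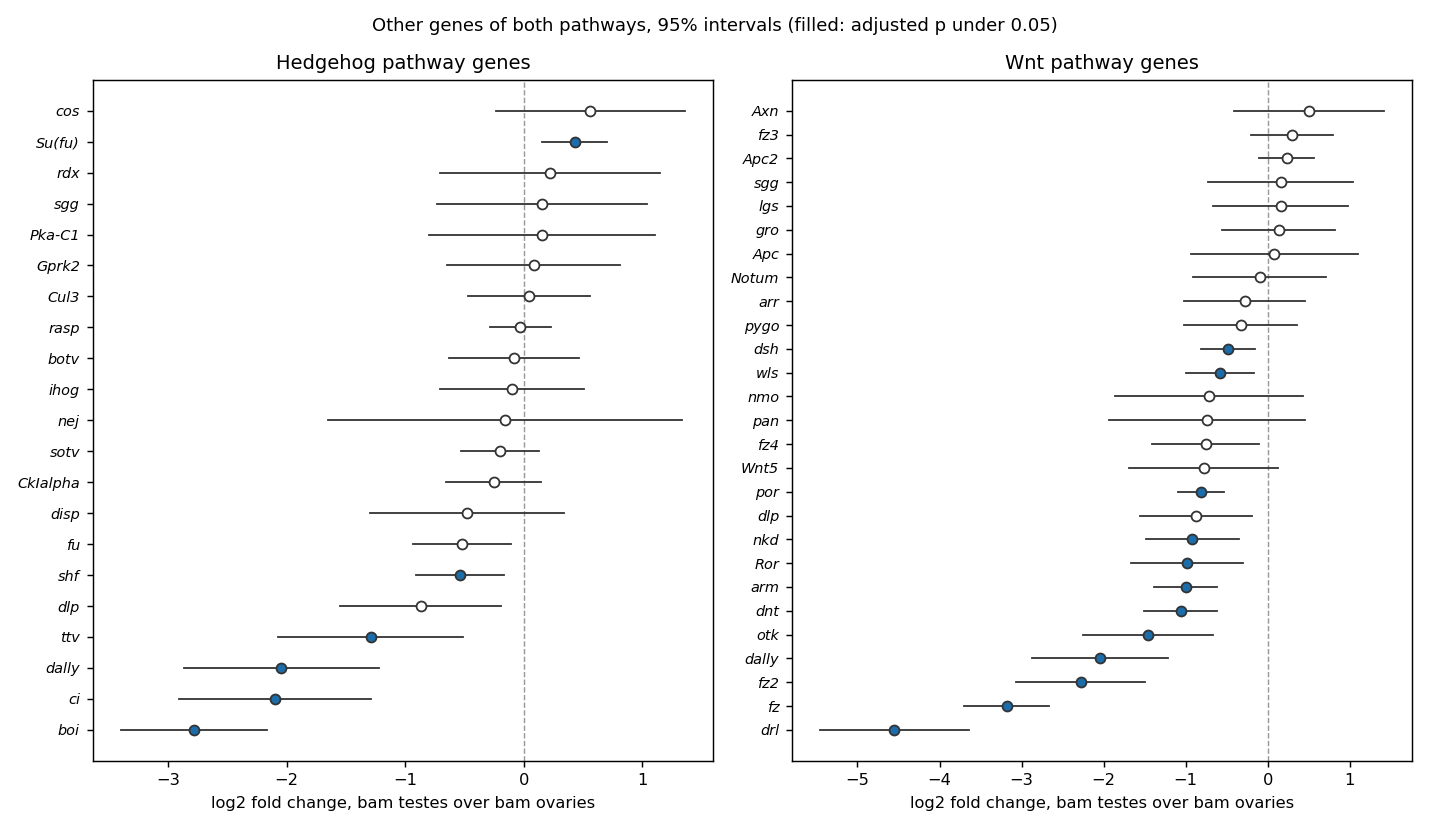
Log2 fold changes in bam testes over bam ovaries (x axis, points) with 95% intervals for the 21 tested Hedgehog pathway genes (left) and the 27 tested Wnt pathway genes (right), none of them a member. Filled points have an edgeR adjusted p under 0.05: 1 higher and 5 lower on the left, and 12 lower on the right.

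Under Sxl RNAi neither list had a gene called by edgeR. At an unadjusted p under 0.05 there were 4 Hedgehog and 5 Wnt pathway genes, and DESeq2 called 1 and 0. The gene that DESeq2 called was ci (adjusted p = 0.0145), at 158, 182 and 159 CPM under Sxl RNAi, against 95.05, 104 and 131 CPM under mCherry RNAi. In edgeR its log2 fold change was 0.61 (SE 0.14, adjusted p = 0.188). The next smallest p in the lists belonged to sotv, another heparan sulphate polymerase (0.35, SE 0.12, adjusted p = 0.353), to drl (0.67, SE 0.22, adjusted p = 0.311) and to Ror, a receptor tyrosine kinase (-0.82, SE 0.29, adjusted p = 0.345).

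mCherry RNAi ovaries over bam ovaries also had none called in either list by edgeR or DESeq2, with 2 genes of each list at an unadjusted p under 0.05. Those were boi (0.53, SE 0.21, adjusted p = 0.182) and sotv (-0.29, SE 0.12, adjusted p = 0.211) in the Hedgehog list. In the Wnt list they were dsh, a cytoplasmic transducer (0.26, SE 0.10, adjusted p = 0.160), and Notum, a secreted Wnt deacylase (-0.90, SE 0.36, adjusted p = 0.190). Wnt2 was therefore the gene of the 2 pathways that was called between these 2 kinds of ovary.

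The sex effect minus the Sxl RNAi effect was called for 6 Hedgehog pathway genes, all negative, and for 11 Wnt pathway genes, 1 positive and 10 negative. These were 28.6% and 40.7% of the genes tested in each list, beside the 25.6% called over all genes. In the Hedgehog list these were boi (-3.04, SE 0.30), ci (-2.70, SE 0.36), dally (-2.35, SE 0.39), ttv (-1.38, SE 0.37), sotv (-0.53, SE 0.17) and dlp (-1.13, SE 0.38), a second glypican. The positive gene of the Wnt list was Apc2 (0.56, SE 0.18, adjusted p = 0.0415), a member of the β-catenin destruction complex. The lowest were drl (-5.20, SE 0.45), fz (-3.40, SE 0.26) and fz2 (-2.72, SE 0.36).

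Libraries varied within groups, and several members moved together in them. bam ovary replicate 3 was the lowest of its group for 7 of 8 members, the exception being inv. Its terminal filament and cap cell sum (295 CPM, 7 of 7 matched) was also the lowest of that group. So were its escort cell (921 CPM, 6 of 6 matched) and muscle (8541 CPM) sums. The same held for the hub (406 CPM), cyst cell (443 CPM), follicle cell (5854 CPM) and germ cell (889 CPM) sums. It also held for the hemocyte (526 CPM), sperm storage organ and oviduct (26.8 CPM) and neuron (19.0 CPM) sums. The fat body (94.1 CPM), male gonad soma and pigment cell (129 CPM) and accessory gland (11.2 CPM) sums were not lowest there. The part of all these sums in the values of the members was not tested. mCherry RNAi replicate 2 was the lowest of its group for all 8 members. There the terminal filament and cap cell sum (494 CPM) and the escort cell sum (1287 CPM) were also lowest. The muscle sum (16055 CPM) was the highest of that group, although sls (249 CPM) and bt (377 CPM) of that list were lowest there. The follicle cell (5300 CPM), fat body (186 CPM), accessory gland (25.6 CPM) and sperm storage organ and oviduct (43.9 CPM) sums were highest too. The hub (614 CPM), cyst cell (359 CPM) and germ cell (707 CPM) sums were lowest. So were the hemocyte (693 CPM), neuron (26.8 CPM) and male gonad soma and pigment cell (113 CPM) sums. Sxl RNAi replicate 1 was the highest of its group for 7 of 8 members. Its terminal filament and cap cell sum (517 CPM) and muscle sum (19828 CPM) were also highest, while its escort cell sum (1568 CPM) was the lowest. In testes, replicate 3 was the lowest for hh, Wnt2 and Wnt6 and the highest for Wnt4, smo and en. Its accessory gland (204 CPM), escort cell (5713 CPM) and muscle (1244 CPM) sums were the lowest of the testes. Its terminal filament and cap cell sum (190 CPM) was the highest. The part of these sums in the values of the members was not tested either.

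Niche markers differed between the sexes too, beside 32.7% of all genes called (16.4% higher, 16.3% lower). The terminal filament and cap cell list, LamC, bab1, bab2, nord, dpp, Nrt and mirr, summed to 178 to 190 CPM in bam testes and 295 to 411 CPM in bam ovaries, with 5 of 7 genes lower in testes and none at 0 reads in either group. Its sum was 456 to 517 CPM under Sxl RNAi and 494 to 523 CPM under mCherry RNAi, above every bam ovary as for Wnt2, but no gene of the list was called between mCherry RNAi and bam ovaries. The escort cell list summed to 5713 to 7974 CPM in bam testes and 921 to 1449 CPM in bam ovaries, of which GstS1 alone gave 4882 to 7429 and 214 to 248 CPM; 1 of 6 genes was higher and 3 were lower in testes. The cyst cell list (5 of 5 matched) summed to 133 to 287 CPM in bam testes and 443 to 700 CPM in bam ovaries, with 3 genes lower. It shares tj, zfh1 and eya with the escort cell list, so the results of these lists are not separate. The part of these cells, and of the muscle and accessory gland RNA above, in the differences of the members was not tested.

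The genes most like each member were found by Pearson's r of log2(CPM + 0.5) over the 12 libraries, among 7790 genes with a mean of at least 5 CPM. The r describes libraries that differ in depth and fall into testes and ovaries, so the r within the 9 ovary libraries is given beside it. hh and Wnt6 were each other's closest gene, with r = 0.983 over 12 libraries and 0.847 over the 9 ovaries. The second for hh was Hr96, a nuclear receptor gene, with 0.967 over 12 libraries but 0.299 in ovaries, and the second for Wnt6 was CG30496 (0.967 and 0.691). For ptc they were FBgn0042650, which has no symbol paired with it here (0.990 and 0.897), and osp (0.990 and 0.929).

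For Wnt4 the closest were Glut4EF (0.978 over 12 libraries and 0.969 in ovaries) and fend (0.975 and 0.940), and for Wnt2 they were CG8036 (0.954 and 0.934) and Aldh-III (0.937 and 0.956). For smo they were CG10631 (0.974 and 0.955) and Alh (0.957 and 0.938), and for inv CG2082 (0.975 and 0.825) and Gasp (0.973 and 0.887). The likeness of the genes named for Wnt2, Wnt4 and smo was thus nearly as high within ovaries, while that of Hr96 to hh was not. en averaged less than 1 CPM and was left out.

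Some members are neighbours. Wnt4 and Wnt6 lie 56.54 kilobases apart on 2L with 1 protein-coding gene between them, yet Wnt6 was higher in testes and Wnt4 was not. en and inv lie 14.31 kilobases apart on 2R with 0 protein-coding genes between, and both had at most 4 reads in any testis. Genes that overlap or adjoin a member were read beside it. lncRNA:CR44281, on the opposite strand within the span of ptc and sharing 0 exonic bases with it, had 2.22 ± 1.72 CPM in bam testes and 8.96 ± 2.80 CPM in bam ovaries (SD, n = 3 each; log2 fold change -2.06, SE 0.56, adjusted p = 0.0317), the direction of ptc. CG31457, which begins or ends 187 bases from hh, had 31.0 ± 2.96 CPM in bam testes and 20.8 ± 1.59 CPM in bam ovaries (0.57, SE 0.12, adjusted p = 0.0138), the direction of hh at a smaller size. The other gene near hh, CG31365 (0.11, SE 0.21, adjusted p = 0.733), and the gene next to ptc, Acsl (0.00, SE 0.18, adjusted p = 0.994), were not called. CG31909, on the opposite strand within the span of Wnt4, averaged under 0.110 CPM in every group.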

How the data were processed

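Per the labels' protocols, gonads of 3 biological replicates were dissected for every genotype and TruSeq RNA v2 libraries were made from 200 ng of RNA. The deposited files hold raw read counts per gene, as whole numbers. The submitters' processing notes name HTSeq 0.9.1, TopHat2 2.1.1, Bowtie2 2.2.9, FastQC and DESeq on build BDGP6. How reads were assigned by strand and overlap, and which annotation was used, is not given in the sources used here. HTSeq adds 5 summary lines, which held 12.0% to 17.1% of reads and were left out. Of 17559 gene IDs, 17253 matched a symbol. Positions and exon lengths came from Ensembl release 115 of BDGP6, which may differ from the annotation used for counting.

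The 3 pairwise comparisons of the main text each used their own 6 libraries, fitted in edgeR 4.0.16 (R 4.3.3) with TMM, filterByExpr and the robust quasi-likelihood F test, at a Benjamini-Hochberg adjusted p under 0.05. The difference of effects and further contrasts used all 12 libraries. The SE is the log2 fold change divided by the square root of F. Within groups, pairs of libraries differed by at least 9.98 in chi-square per degree of freedom, so all were kept. Alternatives were DESeq2 1.42.0, other scalings and filters, a joint fit, a replicate block and leaving out each replicate. The scripts were tested on simulated data.

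The members and lists were chosen with earlier results of these data known. Named genes are the members, Sxl, genes overlapping a member, at most 8 called genes per list, comparison and direction (smallest p first, or the 2 smallest p where none was called) and the 2 genes most like each member. Genes singled out beside these, among them ihog, fz3, fz4, CG31457, CG31365, Acsl and single markers, were chosen after their values were seen. The symbols wg, slmb, vas, nos, esg and wupA had no match and were not analysed here.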

Additional observations from a re-analysis of the deposited data

How the results depend on the processing

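Over 7 members in the sex comparison and 13 alternatives, 4 calls that did not rest on the filter kept their direction and their side of the threshold, with hh between 1.67 and 2.04, Wnt2 between 1.24 and 1.58, Wnt6 between 1.15 and 1.43 and ptc between -2.22 and -1.81. inv, which passed the filter through the ovaries alone, lay between -3.07 and -2.38. Deviations of same-numbered libraries from their group means correlated at between -0.60 and 0.39. With 3 replicates per group, these values cannot tell whether same-numbered libraries shared a batch. With the replicate number as a block, the Hedgehog list had 3 called genes and the Wnt list 7 in the sex comparison, and 0 members were called in mCherry RNAi over bam ovaries; no other count given for members or lists moved by over 1.5 times under the block. Over all genes the block gave 1696, 3 and 93 calls in the sex, Sxl RNAi and mCherry RNAi comparisons, against 3186, 21 and 607 without it. With each replicate left out in turn, the counts lay between 3 and 6 for the Hedgehog list and between 7 and 13 for the Wnt list in the sex comparison. For the difference of effects between 4 and 7 members were called, with en and inv counted where called. Under Sxl RNAi, DESeq2 called 1 Hedgehog pathway gene and 296 genes in all, and 39 genes were called with no filter, 43 with all 12 libraries and 3 to 23 with 1 library left out. DESeq2 called 1248 genes in mCherry RNAi over bam ovaries.

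Sign changes came only at estimates near 0 that were not called. In the sex comparison smo was -0.0058 with upper-quartile scaling and -0.027 with the replicate block, and it lay between -0.24 and 0.24 with 1 replicate left out. Under Sxl RNAi, hh was -0.0067 with relative log expression scaling, -0.0031 with upper-quartile scaling, -0.0050 with a filter at 1 CPM in 3 libraries and -0.015 with all 12 libraries. With 1 replicate left out of that comparison, hh lay between -0.10 and 0.17, ptc between -0.24 and 0.020, smo between -0.082 and 0.21, inv between -0.32 and 0.32, Wnt2 between -0.13 and 0.067 and Wnt4 between -0.012 and 0.45. In mCherry RNAi over bam ovaries hh lay between -0.19 and 0.080 and smo between -0.087 and 0.20, and the difference of effects of smo lay between -0.28 and 0.15. The cause of these shifts was not tested. Depth limits en and inv, with at most 4 reads in a testis.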
